A study of Mus musculus with 2 samples.

Results

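The regulatory T cells (Treg cells) of mouse liver tumours were described from single-cell RNA-seq of sorted CD45+ leukocytes. A barcode was taken as a Foxp3 T barcode when it held at least 1 unique molecular identifier (UMI, 1 counted RNA molecule) of Foxp3, at least 1 UMI of Cd3d, Cd3e and Cd3g together, and 0 UMIs of Cd8a, Cd8b1, Cd79a and C1qa. A kept barcode had no fewer than 200 genes and a mitochondrial share below 15%. This rule found 164 barcodes, 116 in the AKK library and 48 in the PBS library, among 11350 kept barcodes (6517 and 4833) of 11698 in all (6610 and 5088). The members were thus chosen by their UMIs of Foxp3, the Cd3, Cd8a, Cd8b1, Cd79a and C1qa genes, and the levels of these genes are given as a description.

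The AKK library came from C57BL/6 mice fed 5e9 CFU of Akk, the gut bacterium Akkermansia muciniphila, and the PBS library from C57BL/6 mice fed PBS. Both groups carried the same model: feeding began 2 weeks before a methionine- and choline-deficient (MCD) diet, and after 2 weeks of that diet luciferase-labelled RIL-175 liver cancer cells were implanted into the liver. Akk feeding stopped for 6 days after the surgery and then went on to the end. Every T cell described here is therefore from an implanted tumour of 1 cell line in a host with its own immune system, and the sources used here do not give how many mice were pooled, their age or their sex. The study asked how Akk acts on innate immunity in the tumour. With 1 library per group there was no replicate, so no test was possible, and every interval below, at 95%, reflects only the error of counting. UMIs from PCR-amplified libraries and cells of 1 tumour digest share their source, and a difference between the libraries is a difference between those 2 libraries.

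Treg cells are CD4 T cells that hold other immune cells in check. Foxp3 is the transcription factor that fixes their identity, and they are known for a high level of the IL-2 receptor alpha chain (Il2ra), for CTLA-4, which takes up costimulatory ligands from antigen-presenting cells, and for the transcription factor Helios (Ikzf2). In tumours, activated Treg cells commonly carry TNF-receptor family members, secrete IL-10 and divide, and a subset found in tissues reads the alarmin IL-33 through ST2 (Il1rl1) and makes the repair factor amphiregulin (Areg).

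The libraries held 74495998 (AKK) and 64731604 (PBS) UMIs, and 8 barcode sequences occurred in both, none of them a Foxp3 T barcode. The Foxp3 T barcodes summed to 1578031 and 625577 UMIs, with medians of 10270 and 11171 UMIs and 3246.5 and 3386.5 genes per barcode. A median of 2.21% (AKK) and 2.04% (PBS) of their UMIs were mitochondrial. Levels are given as CPM (UMIs scaled to a total of 1e6 UMIs of the set), summed over the barcodes of a library. The PBS sums rest on fewer barcodes, so low genes are less precise there. A set of 217 conventional CD4 barcodes (144 and 73), with a Cd3 and a Cd4 UMI and none of Foxp3, Cd8a, Cd8b1, Cd79a and C1qa, and a set of 666 CD8 barcodes (468 and 198) were used for comparison. Their median depths were 7731.5 and 8916 UMIs for the conventional CD4 set and 9296 and 10669 UMIs for the CD8 set.

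The other given markers were detected in most members, in keeping with the label. Of 320 barcodes with a Foxp3 UMI (214 AKK and 106 PBS), 81 had no Cd3 UMI, 23 more held Cd79a, 31 held C1qa and 21 held Cd8a or Cd8b1. Foxp3 (chrX:7573644-7595245, + strand) had a median of 3 UMIs per member in AKK and 3.5 in PBS, with maxima of 21 and 13. Il2ra, Ikzf2, Ctla4 and Tnfrsf4 (OX40, a costimulatory TNF receptor) were all 4 detected in 73 of 116 AKK members (62.9%) and 35 of 48 PBS members (72.9%). Among conventional CD4 barcodes all 4 were detected in 9 of 144 AKK barcodes (6.25%) and 5 of 73 PBS barcodes (6.85%). None of the 4 was seen in 4 AKK members and 1 PBS member. A Cd4 UMI, which the rule did not ask for, was present in 73 AKK members (62.9%) and 36 PBS members (75%).

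Members just inside the Foxp3 limit carried less Il2ra and Ikzf2 than those above it, by an amount that in PBS depended on barcodes holding RNA of another cell type. Il2ra stood at 334 CPM in AKK and 206 CPM in PBS in members with exactly 1 Foxp3 UMI (26 and 10 barcodes), at 877 and 1417 CPM with 2 UMIs (26 and 8), and at 1034 and 794 CPM with 3 or more (64 and 30). Just outside the limit, in conventional CD4 barcodes with 0 Foxp3 UMIs, Il2ra was at 97.1 CPM in AKK and 73.2 CPM in PBS. Ikzf2 was at 963 CPM in AKK and 952 CPM in PBS at 1 Foxp3 UMI, at 4618 and 4182 CPM at 3 or more, and at 372 and 650 CPM at 0. Without the barcodes called mixed below (16 AKK and 8 PBS single-UMI members left), Il2ra in single-UMI members was at 333 CPM in AKK and 625 CPM in PBS, and Ikzf2 at 933 and 2884 CPM. The single-UMI members lay between the conventional barcodes and the members with 3 or more UMIs for these 2 genes, with or without mixed barcodes. Foxp3 barcodes with no Cd3 UMI that met the rest of the rule (28 and 14) lay outside the Cd3 limit, and there Il2ra was at 5.06 CPM in AKK and at 0 in PBS. Free RNA can put a Foxp3 UMI into other cells: 0.966% of AKK and 0.425% of PBS neutrophil barcodes held one, at medians of 4454.5 and 5234 UMIs. The T barcodes without a Cd8 UMI held one in 12.4% (AKK) and 11.9% (PBS) of cases.

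**Figure D1:**
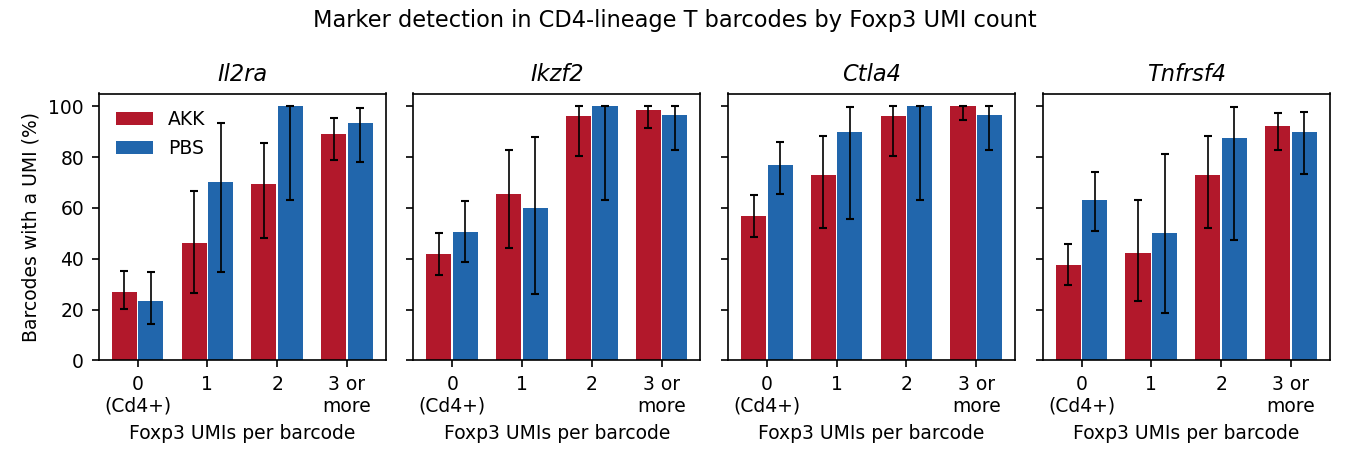
Percent of barcodes with at least 1 UMI of Il2ra, Ikzf2, Ctla4 and Tnfrsf4 (y axis) by the number of Foxp3 UMIs (x axis; 0 is the conventional CD4 set), AKK bars left of PBS bars, with exact 95% binomial intervals. Il2ra was detected in 27.1% of AKK and 23.3% of PBS barcodes at 0 Foxp3 UMIs and in 89.1% and 93.3% at 3 or more.

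Foxp3 T barcodes made up a larger share of all leukocytes in the AKK library, together with T cells as a whole. They were 1.78% of kept AKK barcodes (116 of 6517, exact interval 1.47 to 2.13) and 0.993% of kept PBS barcodes (48 of 4833, 0.733 to 1.31), a difference of 0.787 percentage points (Newcombe interval 0.352 to 1.21). T barcodes as a whole, those with a Cd3 UMI and none of Cd79a and C1qa, were 21.7% of AKK and 12.5% of PBS barcodes. Within T barcodes the Foxp3 share was 8.19% in AKK (116 of 1417) and 7.92% in PBS (48 of 606), and the interval of that difference ran from -2.49 to 2.71 points. Within the CD4 lineage, the members plus the conventional CD4 barcodes, it was 44.6% in AKK (116 of 260) and 39.7% in PBS (48 of 121), with a difference between -5.75 and 15.2 points. There were 4.03 CD8 barcodes per Foxp3 T barcode in AKK (3.29 to 4.99) and 4.13 in PBS (3.0 to 5.78). The higher share of all leukocytes was thus not accompanied by a difference within T cells that exceeded counting error. The sort on CD45 and the recovery of other leukocytes enter the share of all barcodes, and their part in it was not tested.

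Against conventional CD4 barcodes, the members of both libraries had higher levels of Treg and suppression genes and lower levels of genes of the resting Treg list. Part of the cell cycle list was also higher in both, with a smaller list median in PBS. The rule used only Foxp3 and the lineage genes, and the contrast is a description of the chosen cells. Of 8153 genes with at least 50 UMIs over both sets, 195 (2.39%) were at least 2-fold higher in Foxp3 T barcodes in both libraries and 196 (2.4%) at least 2-fold lower. The core Treg list had 6 of 13 measured members in the higher group and 0 in the lower. The suppression list had 7 of 19 higher, the effector Treg list 8 of 32, the IL-33 and tissue Treg list 6 of 16 and the cell cycle list 12 of 32, each with 0 lower. The resting Treg list had 1 of 15 higher and 7 lower. The median log2 ratio of the cell cycle list was 0.976 in AKK and 0.336 in PBS, against 0.01 and 0.054 over all genes. In PBS, 2 of 48 members and 0 of 73 conventional CD4 barcodes passed the limit for cycling barcodes described below.

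Il2ra reached 820 CPM in Foxp3 T barcodes of AKK against 97.1 CPM in conventional CD4 barcodes (8.45-fold), and 753 against 73.2 CPM in PBS (10.3-fold). Ikzf2 reached 3691 against 372 CPM in AKK (9.92-fold) and 3376 against 650 CPM in PBS (5.20-fold). Ctla4 was 3.93-fold higher in AKK and 2.28-fold higher in PBS. Tnfrsf4 was 4.68-fold higher in AKK and 1.91-fold higher in PBS, where it fell short of 2-fold. Among other members of the core list, Lrrc32 (GARP, which holds latent TGF-beta on the cell surface) was at 59.6 against 1.36 CPM in AKK and 44.8 against 4.48 CPM in PBS. Ikzf4, which encodes the Ikaros family factor Eos, was 8.90-fold and 3.68-fold higher, and Izumo1r (folate receptor 4) 3.68-fold and 2.97-fold. These markers stood higher than in conventional cells in each library, by ratios that differed between the libraries.

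Effector and tissue genes were part of the same contrast. Tnfrsf9 (4-1BB, a costimulatory receptor of activated T cells) was at 871 against 172 CPM in AKK and 964 against 315 CPM in PBS. Gzmb, a cytotoxic granule protease, was at 406 against 69.3 CPM in AKK and 233 against 52.3 CPM in PBS. Klrg1, a receptor of differentiated effector cells, was at 203 against 21.0 CPM in AKK and 155 against 26.9 CPM in PBS. Areg was at 461 against 112 CPM in AKK and 488 against 28.4 CPM in PBS, and Il1rl1 was 6.23-fold and 3.64-fold higher. Itgb8, an integrin chain that helps to activate TGF-beta, was 11.2-fold higher in AKK and 2.34-fold higher in PBS. Mki67, a marker of dividing cells, was 8.77-fold higher in AKK and 8.97-fold higher in PBS. In PBS, 1 barcode held 28 of the 67 Mki67 UMIs of the members. Members with Il1rl1 also held Klrg1 more often: 77.8% of Il1rl1-positive and 28.2% of Il1rl1-negative members in AKK, and 85.7% and 22.2% in PBS, at median depths of 10430 and 10186 UMIs in AKK and 10575 and 11485 in PBS.

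By the rule for naming genes, the largest ratios over conventional CD4 barcodes, judged by the interval end nearest to 1 in the less extreme library, were those of Nckap5, Il2ra, Frmd5, Msrb3, Swap70, Ikzf2, Cep112, Mki67, Ankrd55, Arnt2, Dscaml1, Cenpf, Gm28112, Areg and Klrg1. Nckap5 was at 276 against 13.6 CPM in AKK and 157 against 4.48 CPM in PBS. Swap70, which encodes a regulator of the actin cytoskeleton, was at 149 against 13.6 CPM in AKK and 262 against 32.8 CPM in PBS. Frmd5 reached 478 CPM in AKK and 702 CPM in PBS from 29 and 14 barcodes. Gm28112 (chr1:69660187-69662061) lies within the span of Ikzf2 (chr1:69531214-69687245), and reads of overlapping genes may not be told apart, so its ratio is uncertain.

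At the other end stood Hs6st3, St8sia1, 8030451A03Rik, Dlg2, Tcf7, Ifng, Tnfsf11, Mctp2, Bcl2 and Tgfbr3. Tcf7, the TCF-1 factor of naive and memory T cells, was at 36.8 against 329 CPM in AKK and 20.8 against 366 CPM in PBS. Ifng, the effector cytokine interferon gamma, was at 12.0 against 107 CPM in AKK and at 1.60 against 77.6 CPM in PBS, where the Foxp3 T value was 1 UMI. Tnfsf11 (RANKL, a TNF family ligand) was at 23.4 against 216 CPM in AKK and 33.6 against 284 CPM in PBS. Bcl2, which protects resting lymphocytes from apoptosis, was at 95.7 against 524 CPM in AKK and 62.3 against 841 CPM in PBS. From the resting list, Lef1 was 0.35 and 0.46 times the conventional level in AKK and PBS, S1pr1 (the receptor that lets T cells leave tissue) 0.32 and 0.25 times, and Bach2 0.23 and 0.16 times. Cd40lg, the helper ligand CD40L, was at 0.03 and 0.12 times.

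Between the libraries, the given markers of Foxp3 T barcodes were close. Foxp3, used by the rule, was at 286 CPM in AKK and 323 CPM in PBS. Il2ra was at 820 CPM in AKK and 753 CPM in PBS (ratio 1.09, 0.979 to 1.21), Ikzf2 at 3691 and 3376 CPM (1.09, 1.04 to 1.15), Ctla4 at 1385 and 1244 CPM (1.11, 1.03 to 1.21) and Tnfrsf4 at 477 and 470 CPM (1.01, 0.885 to 1.16). Without mixed barcodes the ratio was 0.978 (0.878 to 1.09) for Il2ra and 0.986 (0.937 to 1.04) for Ikzf2. It was then 1.03 (0.945 to 1.12) for Ctla4 and 0.890 (0.774 to 1.02) for Tnfrsf4. In conventional CD4 barcodes the AKK over PBS ratios were 0.573 for Ikzf2, 0.647 for Ctla4 and 0.413 for Tnfrsf4, so the ratio of ratios was 1.67 to 2.19 for Ikzf2, 1.47 to 2.02 for Ctla4 and 1.89 to 3.18 for Tnfrsf4 by counting intervals. CD8 barcodes had ratios of 0.568, 0.747 and 0.377 for the same 3 genes. These 3 markers were thus lower in AKK than in PBS in other T cells and near parity in Foxp3 T barcodes. Il2ra differed from them, with a ratio of 1.33 (0.953 to 1.88) in conventional CD4 and 0.722 in CD8 barcodes. Its ratio of ratios against conventional CD4 barcodes was 0.583 to 1.15. After thinning each barcode to 5539 UMIs, which kept 104 AKK and 43 PBS members and left out 12 and 5, Il2ra was detected in 73.1% of AKK and 86.0% of PBS members. In thinned neutrophil barcodes, a cell type that should lack it, Il2ra was detected in 2.57% (AKK) and 1.32% (PBS). Thinning kept 738 AKK and 834 PBS neutrophil barcodes and left out 1642 and 1050, so every thinned neutrophil share describes the deeper ones.

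Icos and Cd28, costimulatory receptors of the CD28 family, differed more. Icos was at 812 CPM in AKK and 524 CPM in PBS (ratio 1.55, 1.37 to 1.75), with 0.889 in conventional CD4 barcodes. Cd28 was at 544 CPM in AKK and 310 CPM in PBS (1.75, 1.5 to 2.06), with 1.07 in conventional CD4 barcodes. The TNF receptor list had 2 of 19 measured members past 1.5-fold higher and 0 past it lower, with a median log2 ratio of -0.10. Without mixed barcodes 1 passed higher and 0 lower, 5 were higher and 14 lower, and the median was -0.30. Ikzf4 was at 157 CPM in AKK and 225 CPM in PBS (0.697, 0.565 to 0.864). The core list as a whole had 7 measured members higher and 6 lower in AKK and a median log2 ratio of 0.02, the same as over all genes. Of its 13 measured members, 1 passed 1.5-fold higher, Icos, and 0 passed 1.5-fold lower. Without mixed barcodes 4 members of the core list were higher and 9 lower, with a median of -0.14. Then 0 passed 1.5-fold higher and 1 passed it lower. Over all 8748 genes with at least 20 UMIs, 19.2% passed 1.5-fold higher and 15.1% lower, and the list counts that follow stand against these shares.

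Some barcodes held RNA of another cell type as well, and they decide several of the largest gene ratios. Barcodes with over 0.2% of their UMIs from 1 marker set of another cell type were called mixed, a limit set after seeing the data. There were 14 in AKK (12.1%) and 3 in PBS (6.25%), and they held 15.5% and 18.5% of the UMIs. The neutrophil set marked 11 AKK and 2 PBS members, the macrophage and monocyte set 3 and 2, the mast cell set 1 and 0, and the tumour set 0 and 1. In AKK, 1 barcode of 31120 UMIs held 99.0% of the UMIs of Mcpt1 in AKK members, 99.2% of those of Mcpt2, 99.3% of those of Mcpt4 and 99.4% of those of Cpa3, all proteases of mast cells. In PBS, 1 barcode of 90804 UMIs, 14.5% of all UMIs of the PBS members, held 96.7% of the PBS UMIs of Krt8 and 97.3% of those of Krt18, keratins of epithelial and tumour cells. Without mixed barcodes 102 AKK and 45 PBS members remained, and values for them are given beside the results they touch.

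Of 6145 genes with at least 50 UMIs over the members of both libraries, 944 (15.4%) were at least 1.5-fold higher in AKK and 680 (11.1%) at least 1.5-fold lower. Without mixed barcodes the counts were 847 (15.5%) and 589 (10.8%) of 5451 genes. The 15 genes named as highest were Mcpt1, Mcpt2, Cpa3, Mcpt4, Pclaf, Dtl, Ifi205, Rrm2, Zranb3, Ect2, Hist1h2ap, Nrg1, Gzmc, A830035A12Rik and Gzma. For 6 of these 15, over 90% of the AKK UMIs came from 1 barcode. The 15 named as lowest were Sgcd, Phldb2, Sorbs2, Cldn18, Map1b, Hmga2, Krt19, Rbp4, Tm4sf1, Krt18, Cdh6, Krt8, Ghr, Sparc and Arg1, and for 13 of them over 90% of the PBS UMIs came from 1 barcode. Phldb2 had 88.3% and Arg1 67.2% in 1 barcode. The lower end of the ranking thus rested mostly on 1 PBS barcode.

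Without mixed barcodes the ranking named Pclaf, Dtl, Ifi205, Hist1h2ap, Gzmc, A830035A12Rik, Gzma, Mcm7, Smc2, Stmn1, Rrm2, Hist1h2ae, Clspn, Hells and Tmem163 as highest, 8 of them shared with the ranking of all members. At the lower end it named 15 other genes, among them Dscaml1, Peli2, Adam12, Il7r, Gramd4, Adam9, Nebl, Rnf157, Dhrs3, Hgsnat, Ednrb, Immp2l and Rapsn. Of the 15 genes at the upper end, 3 are in the cell cycle list. Tmem163 (chr1:127486546-127679548, - strand), which encodes a zinc-binding membrane protein, was at 276 CPM in AKK and 62.3 CPM in PBS (ratio 4.42, 3.18 to 6.30), in 40 and 9 barcodes, against 0.964 in conventional CD4 barcodes (ratio of ratios 3.13 to 6.73). With each barcode weighted alike, that is, as the mean of the CPM of single barcodes, the Tmem163 ratio was 2.23. Gzma, a granule protease, was at 60.8 CPM in AKK and 3.20 CPM in PBS (19.0-fold, 5.13 to 159, from 2 PBS UMIs), with 43.8% of the AKK UMIs in 1 barcode and a ratio of 6.69 with barcodes weighted alike. After thinning, Gzma was in 13.5% of AKK and 0% of PBS members, but also in 12.5% of AKK and 3.84% of PBS neutrophil barcodes, so its share of AKK members was near background.

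**Figure D2:**
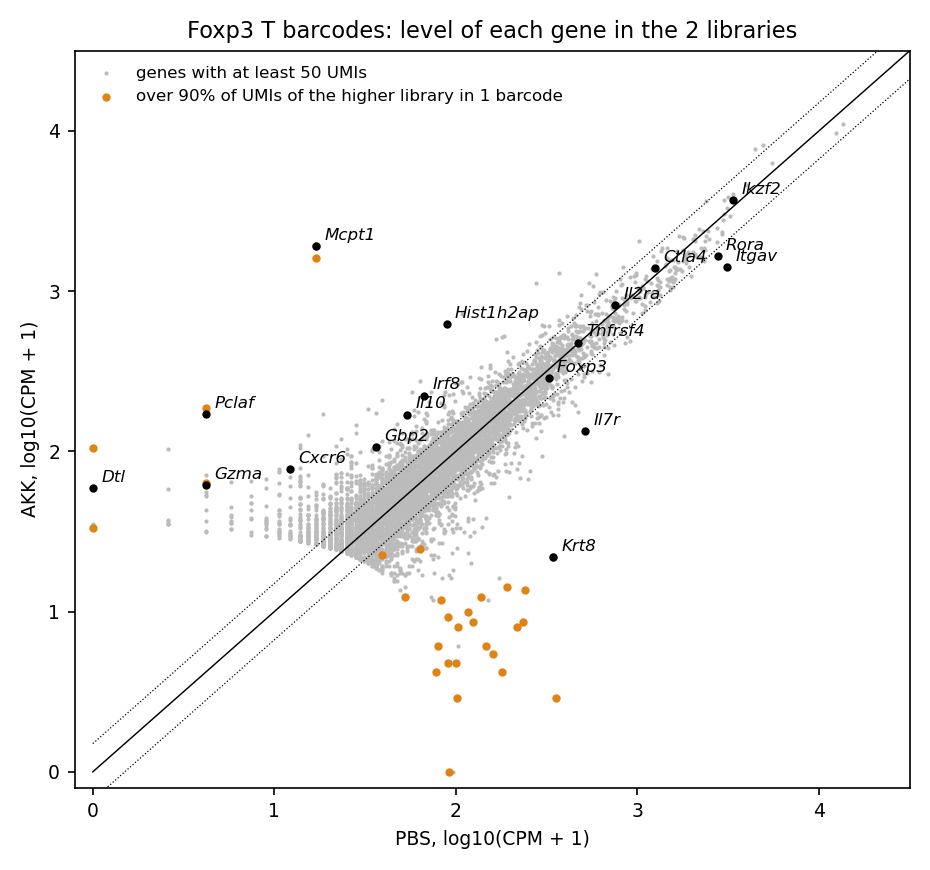
Level of each gene with at least 50 UMIs in Foxp3 T barcodes, as log10(CPM + 1) in AKK (y axis) and PBS (x axis); the solid line marks equal levels and the dotted lines 1.5-fold. Labelled genes are black, orange points have over 90% of the UMIs of the higher library in 1 barcode, as have the labelled Mcpt1 and Krt8; Foxp3, Il2ra, Ikzf2, Ctla4 and Tnfrsf4 lie near the line, Pclaf and Hist1h2ap above it and Il7r below it.

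Cell cycle genes were higher in AKK as a group. All 36 members of the cell cycle list were higher in AKK and 35 passed 1.5-fold, against 19.2% of all 8748 genes with at least 20 UMIs, with a median log2 ratio of 1.52 against 0.02 over all genes. The exception was Cenpf (ratio 1.04), with 91.7% of its PBS UMIs in 1 barcode. The list summed to 0.537% of the UMIs of AKK members and 0.203% of those of PBS members. Without mixed barcodes 31 of 35 passed 1.5-fold higher, against 20.1% of all genes, with a median of 1.41. Without the cycling barcodes described below, 12 of 19 members still measured were higher and 7 lower, with 3 past 1.5-fold higher and 1 lower. The median was 0.66 in conventional CD4 and 0.43 in CD8 barcodes, so these genes were also higher in AKK in the other T cells.

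The bases before the start sites of Dtl, Clspn and Hells, which are not in the cell cycle list, are shown because these genes were named as higher without mixed barcodes and hold a match to an E2F-type motif there, the kind of site known to bind the E2F factors that drive S-phase genes. Sequences are from RefSeq on GRCm38.p6, the 150 bases upstream of each start site on the gene's own strand, with the match in capitals. Dtl is at chr1:191575545-191575694 (- strand), Clspn at chr4:126556830-126556979 (+ strand) and Hells at chr19:38930840-38930989 (+ strand).
Dtl: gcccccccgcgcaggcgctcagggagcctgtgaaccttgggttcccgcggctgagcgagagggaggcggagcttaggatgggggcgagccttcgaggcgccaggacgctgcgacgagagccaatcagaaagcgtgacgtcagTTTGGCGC
Clspn: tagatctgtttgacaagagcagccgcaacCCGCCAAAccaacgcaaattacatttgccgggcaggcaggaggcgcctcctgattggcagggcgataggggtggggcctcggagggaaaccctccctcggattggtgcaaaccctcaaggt
Hells: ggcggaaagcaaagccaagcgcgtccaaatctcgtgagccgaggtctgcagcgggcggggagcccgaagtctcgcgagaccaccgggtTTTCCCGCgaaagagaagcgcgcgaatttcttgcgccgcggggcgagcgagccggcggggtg
The match begins 8 bases before the start site in Dtl, 121 bases before it in Clspn and 62 bases before it in Hells. In Clspn it is the reverse complement of the searched letters.

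The 4 motifs searched were TTTGGCGC, TTTCGCGC, TTTCCCGC and TTTGGCGG, on both strands over 250 bases upstream of the start. They share part of their letters with each other. Of the 36 cell cycle genes, 29 were in the promoter table and 4 of them (13.8%) held a match, Cdk1, Mcm5, Mcm6 and Mcm7, against 541 of 27025 genes in the table (2.00%). Of the 15 genes named as higher without mixed barcodes, 11 were in the table and 4 held a match, those 3 and Mcm7. A match is a string of letters and no measure of binding.

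Pclaf, which encodes a partner of the replication clamp PCNA, was at 169 CPM in AKK and 3.20 CPM in PBS, a ratio of 52.9 (14.5 to 439) resting on 267 and 2 UMIs in 19 and 2 barcodes. Dtl, an adaptor of a replication-coupled ubiquitin ligase, had 57.7 CPM in AKK, in 22 barcodes, and 0 UMIs in PBS, at least 12.0-fold higher against a floor of 3 UMIs over the PBS members. Rrm2, a subunit of ribonucleotide reductase, was at 69.7 CPM in AKK and 3.20 CPM in PBS (21.8-fold, 5.89 to 182). These genes of DNA synthesis were at 0 to 2 UMIs in PBS. Clspn, a mediator of the replication checkpoint, was at 52.0 CPM in AKK and 3.20 CPM in PBS (16.3-fold, 4.36 to 136, from 2 PBS UMIs). Hells, a chromatin remodeller, was at 64.6 CPM in AKK and 6.39 CPM in PBS (10.1-fold, 3.83 to 37.8). These ratios were smaller without the cycling barcodes, which were chosen by their cell cycle list UMIs. The ratio was then 2.12 for Pclaf, 6.36 for Rrm2, 3.18 for Clspn and 2.52 for Hells. Dtl was then at 12.4 CPM in AKK and 0 in PBS. With barcodes weighted alike the ratios were 11.6, 9.28, 8.11 and 5.24 for Pclaf, Rrm2, Clspn and Hells. Pclaf had an AKK over PBS ratio of 30.9 in conventional CD4 barcodes and 4.08 in CD8 barcodes.

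Better counted members gave smaller ratios. Hmgb2, a chromatin protein high in dividing lymphocytes, was at 1304 CPM in AKK and 368 CPM in PBS (3.55, 3.09 to 4.08), with a ratio of ratios over conventional CD4 barcodes of 1.72 to 2.53. Tuba1b, an alpha-tubulin, was at 234 CPM in AKK and 55.9 CPM in PBS (4.18, 2.95 to 6.09), with a ratio of ratios of 1.74 to 4.40. Hist1h2ap, a replication histone, was at 623 CPM in AKK and 87.9 CPM in PBS (7.09, 5.40 to 9.47). The intervals of all 3 lay above 1, but without cycling barcodes the ratio was 1.29 for Hmgb2, 1.03 for Tuba1b and 0.367 for Hist1h2ap, and with barcodes weighted alike 2.14, 1.88 and 3.32. Mki67 was at 268 CPM in AKK and 107 CPM in PBS (2.5, 1.93 to 3.29), yet it was detected in 31.0% of AKK and 37.5% of PBS members. Top2a, the topoisomerase of dividing cells, was at 262 CPM in AKK and 102 CPM in PBS (2.56, 1.97 to 3.39). For Mki67 the difference lay in the UMIs of few barcodes: 15 AKK and 5 PBS members had at least 3 UMIs, with maxima of 70 and 28.

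The difference was carried by a minority of cells. The median member had 0.172% of its UMIs from the cell cycle list in both libraries. Members with over 0.5%, called cycling by a limit set after seeing the data, were 16 of 116 in AKK (13.8%, 8.09 to 21.4) and 2 of 48 in PBS (4.17%, 0.509 to 14.3), a difference of 9.63 points with an interval from -1.44 to 17.7 that includes 0. They held 76.7% of the list's UMIs in AKK and 19.2% in PBS, and the highest members reached 2.43% and 1.05%. The deepest cycling AKK barcode (67595 UMIs, mixed) held 1 Foxp3 UMI and none of Il2ra, Ikzf2, Ctla4 and Tnfrsf4. Another (48144 UMIs, not mixed) held 1 Foxp3 UMI, 26 of Ikzf2 and none of Il2ra, Ctla4 and Tnfrsf4. Whether these 2 barcodes were Treg cells was not tested. Each of the other cycling AKK barcodes held Ikzf2 and Ctla4. Without cycling barcodes the list median was 0.23, and Mki67 (ratio 0.714), Top2a (0.456) and Hist1h2ap (0.367) turned to lower in AKK. Cycling barcodes were chosen by UMIs of this list and lay mostly in AKK, so leaving them out lowers its ratios by construction. With each barcode weighted alike the median was 0.78. Of conventional CD4 barcodes 5 of 144 in AKK (3.47%) and 0 of 73 in PBS passed the same limit, a count of 0 that allows a share of up to 4.93%, and of CD8 barcodes 19 of 468 (4.06%) and 5 of 198 (2.53%).

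**Figure D3:**
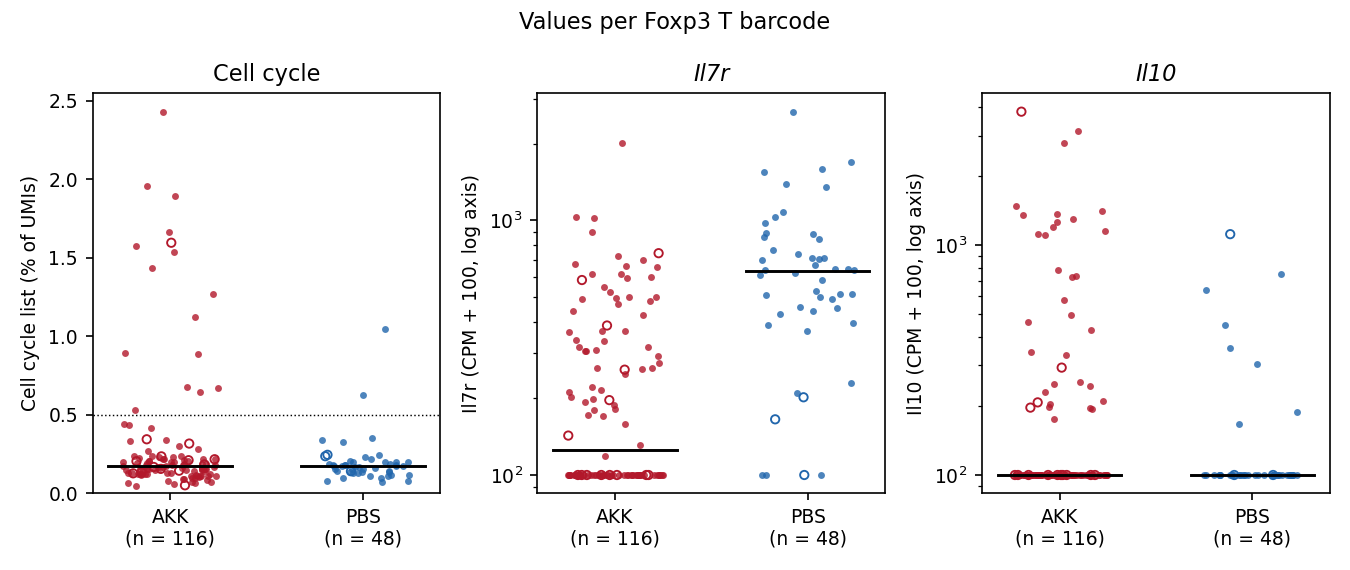
Each point is 1 Foxp3 T barcode, AKK left of PBS: percent of UMIs from the cell cycle list (dotted line at 0.5%), and CPM + 100 of Il7r and of Il10 on log axes; open circles are mixed barcodes and black bars medians. The cell cycle medians are 0.172% in both libraries while 16 AKK and 2 PBS barcodes pass the line, Il7r is at 0 UMIs in 57 AKK and 4 PBS barcodes, and Il10 is detected in 35 and 8.

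Il7r was lower in AKK. It encodes the receptor for IL-7, which keeps resting T cells alive and is classically low on Treg cells. Il7r (chr15:9505788-9530176, - strand) was at 132 CPM in AKK and 516 CPM in PBS, a ratio of 0.257 (0.215 to 0.306) from 209 and 323 UMIs. The median member had 1 UMI in AKK (at most 20) and 5 in PBS (at most 36), and Il7r was at 0 in 57 of 116 and 4 of 48 members. The UMIs were spread, with no more than 9.57% (AKK) and 11.1% (PBS) in 1 barcode. After thinning it was detected in 39.4% of AKK and 90.7% of PBS members, a difference of -51.3 points (-61.8 to -35.7). Thinned neutrophil barcodes held it in 7.72% (AKK) and 4.92% (PBS). The ratio was 0.579 in conventional CD4 and 0.844 in CD8 barcodes, and the ratio of ratios against conventional CD4 barcodes was 0.356 to 0.553. Without mixed barcodes the ratio was 0.229 and without cycling barcodes 0.327. AKK Foxp3 T barcodes thus had 0.41 times the Il7r level of their conventional CD4 barcodes, and PBS Foxp3 T barcodes 0.925 times.

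The resting Treg list, which holds Il7r, did not move as 1 group. Of its 15 measured members 9 were higher in AKK and 6 lower, with 3 past 1.5-fold each way and a median of 0.19. Klf2, which keeps T cells circulating, was at 143 CPM in AKK and 262 CPM in PBS (0.546, 0.445 to 0.672), with 0.565 in conventional CD4 barcodes. Lef1 was at 131 CPM in AKK and 195 CPM in PBS (0.673, 0.535 to 0.848). Il6ra, the IL-6 receptor, was at 62.7 CPM in AKK and 20.8 CPM in PBS (3.02, 1.69 to 5.87), or a ratio of 1.96 with barcodes weighted alike. Bcl2 was at 95.7 CPM in AKK and 62.3 CPM in PBS (1.53, 1.07 to 2.24).

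Other genes named as lower without mixed barcodes were spread over many members. Adam9, a membrane metalloprotease, was at 67.2 CPM in AKK and 224 CPM in PBS (0.30, 0.231 to 0.389), in 46 and 32 barcodes. Gramd4 was at 33.0 CPM in AKK and 137 CPM in PBS (0.240, 0.167 to 0.342), in 33 and 25 barcodes. Their ratios in conventional CD4 barcodes were 0.673 and 0.742. Immp2l, a mitochondrial peptidase, was at 74.1 CPM in AKK and 254 CPM in PBS (0.292, 0.228 to 0.373), with 1.09 in conventional CD4 barcodes. Rnf157, a ubiquitin ligase, was at 124 CPM in AKK and 392 CPM in PBS (0.317, 0.261 to 0.384), and was as low in conventional CD4 barcodes, at 0.320. Dscaml1 and Peli2 rested on few cells, with 43.0% and 40.4% of their PBS UMIs in 1 barcode.

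Genes of suppression were mixed. Of 19 measured members of the suppression list, 12 were higher in AKK and 7 lower, with 5 past 1.5-fold higher and 2 lower (against 19.2% and 15.1% of all genes) and a median of 0.36, or 0.15 without mixed barcodes. These counts were near the shares over all genes. Il10 (chr1:131019845-131024974, + strand), the suppressive cytokine, was at 169 CPM in AKK and 52.8 CPM in PBS (3.20, 2.22 to 4.74), in 35 of 116 and 8 of 48 members. At least 3 UMIs were held by 22 AKK and 6 PBS members. The ratio was 4.11 without mixed barcodes, 0.527 in conventional CD4 and 0.608 in CD8 barcodes, and the ratio of ratios against conventional CD4 barcodes was 2.98 to 12.4. After thinning, Il10 was in 26.0% of AKK and 11.6% of PBS members, a difference of 14.3 points (-0.527 to 25.6), and in 5.28% (AKK) and 12.1% (PBS) of neutrophil barcodes. The PBS share of barcodes was thus near that of neutrophil barcodes. Before thinning, Il10 was in 16.7% of PBS members and 13.7% of PBS conventional CD4 barcodes. Its PBS level of 52.8 CPM compared with 28.4 CPM in conventional CD4 and 5.64 CPM in CD8 barcodes. The PBS ratio over conventional CD4 barcodes was 1.86 (1.03 to 3.46), or 2.01 without mixed barcodes. Of the 8 PBS members with Il10, 6 held at least 3 UMIs, and the highest, with 10 UMIs, was a mixed barcode.

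Lag3, an inhibitory receptor for MHC class II, was at 46.3 CPM in AKK and 20.8 CPM in PBS (2.23, 1.22 to 4.38). Gzmb was at 406 CPM in AKK and 233 CPM in PBS (1.74, 1.45 to 2.10), with 24.0% of the AKK UMIs in 1 barcode and a ratio of 1.33 in conventional CD4 barcodes. Entpd1 (CD39, which degrades extracellular ATP) was at 238 CPM in AKK and 155 CPM in PBS (1.53, 1.22 to 1.94), but its ratio was 1.16 without mixed barcodes. The remaining effector molecules gave other directions. Ebi3, a chain of IL-35, was at 29.2 CPM in AKK and 54.4 CPM in PBS (0.536, 0.337 to 0.862). Tgfb1 was at 248 CPM in AKK and 249 CPM in PBS (0.994, 0.823 to 1.20), and Nt5e (CD73) at 332 and 364 CPM (0.911, 0.778 to 1.07). Among checkpoint receptors, Pdcd1 (PD-1) was at 30.4 CPM in AKK and 49.6 CPM in PBS (0.614, 0.383 to 0.998) and Havcr2 (TIM-3) at 127 and 84.7 CPM (1.5, 1.11 to 2.08), a direction that turned with barcodes weighted alike (0.869).

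Chemokine receptors differed one by one. The homing list had 15 of 25 measured members higher in AKK and 10 lower, with 6 past 1.5-fold higher and 2 lower (against 19.2% and 15.1% of all genes) and a median of 0.16. Without mixed barcodes 6 passed in each direction and the median was -0.02. Cxcr6 (chr9:123806475-123811760, + strand), the receptor for CXCL16 that holds T cells in the liver, was at 76.0 CPM in AKK and 11.2 CPM in PBS, a ratio of 6.80 (3.20 to 17.3) from 120 and 7 UMIs. It was detected in 39 AKK and 5 PBS members, and no PBS member had more than 2 UMIs while 17 AKK members had at least 3. After thinning the shares were 28.8% in AKK and 6.98% in PBS, a difference of 21.9 points (7.85 to 32.3), against 1.76% and 0.959% of neutrophil barcodes. Conventional CD4 barcodes had a ratio of 0.844 and CD8 barcodes 1.09, and the ratio of ratios against conventional CD4 barcodes was 3.61 to 17.9. Cxcr6 in Foxp3 T barcodes was 0.615 times the conventional level in AKK and 0.0765 times in PBS.

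Ccr2, a receptor for inflammatory monocyte chemokines, was at 366 CPM in AKK and 193 CPM in PBS (1.89, 1.55 to 2.32), but conventional CD4 barcodes had a larger ratio of 3.76. It was thus higher in AKK in more than 1 kind of T cell. Ccr8, known as a receptor of tumour Treg cells, was at 34.2 CPM in AKK and 48.0 CPM in PBS (0.714, 0.449 to 1.16), with 0.167 in conventional CD4 barcodes. Ccr6, a receptor of mucosal T cells, was at 10.1 CPM in AKK and 43.2 CPM in PBS (0.235, 0.118 to 0.452), from 7 and 11 members. Itgae (CD103, an integrin chain that binds E-cadherin) was at 84.9 CPM in AKK and 160 CPM in PBS (0.531, 0.407 to 0.695), with 1.36 in conventional CD4 barcodes. Cxcr3, a receptor for interferon-induced chemokines, was at 56.4 CPM in AKK and 60.7 CPM in PBS (0.928, 0.628 to 1.4).

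Interferon gamma response genes leaned higher in AKK. Of 25 measured members, 19 were higher and 6 lower, with 11 past 1.5-fold higher and 1 lower (against 19.2% and 15.1% of all genes with at least 20 UMIs) and a median of 0.46, or 0.33 without mixed barcodes. The median was 0.37 in conventional CD4 and 0.08 in CD8 barcodes. Irf1, a transcription factor of this response, was at 285 CPM in AKK and 133 CPM in PBS (2.15, 1.70 to 2.75), with a median of 3 and 1 UMIs per member. Its ratio was 1.25 in conventional CD4 barcodes, and the ratio of ratios 1.25 to 2.36. Gbp2, an interferon-induced GTPase, was at 106 CPM in AKK and 35.2 CPM in PBS (3.01, 1.92 to 4.93), with 2.31 in conventional CD4 and 2.46 in CD8 barcodes. Irf8, another interferon factor, was at 222 CPM in AKK and 65.5 CPM in PBS (3.38, 2.44 to 4.80), but 10.6-fold higher in AKK in conventional CD4 barcodes. Gbp8, an interferon-induced GTPase of the same family as Gbp2, was at 36.1 CPM in AKK and 60.7 CPM in PBS (0.595, 0.388 to 0.921). In thinned barcodes Irf1 was in 59.6% of AKK and 55.8% of PBS members and in 63.1% and 45.3% of neutrophil barcodes. Whether the neutrophil share was free RNA or Irf1 of the neutrophils themselves was not tested, so it is not a background here.

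Antigen-processing genes gave smaller differences. The MHC class I list had 16 of 20 members higher in AKK, 5 past 1.5-fold higher and 0 lower (against 19.2% and 15.1% of all genes), with a median of 0.26. Without mixed barcodes 2 of 20 passed higher, against 20.1% of all genes, and the median was 0.09. Psmb9, an immunoproteasome subunit, was at 188 CPM in AKK and 84.7 CPM in PBS (2.21, 1.65 to 3.02), or a ratio of 1.41 with barcodes weighted alike. Psme2, a proteasome activator, was at 271 CPM in AKK and 149 CPM in PBS (1.82, 1.45 to 2.31), with 2.17 in conventional CD4 barcodes. H2-K1, a class I heavy chain, was at 2180 CPM in AKK and 1781 CPM in PBS (1.22, 1.14 to 1.31). After thinning, Psme2 was in 69.2% of AKK and 34.9% of PBS members, a difference of 34.3 points (16.7 to 49.2), and in 37.4% and 25.2% of neutrophil barcodes. The type I interferon list had 20 of 32 members higher, 7 past 1.5-fold higher and 3 lower (against 19.2% and 15.1% of all genes), with a median of 0.14, below the 0.46 of conventional CD4 barcodes.

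**Figure D4:**
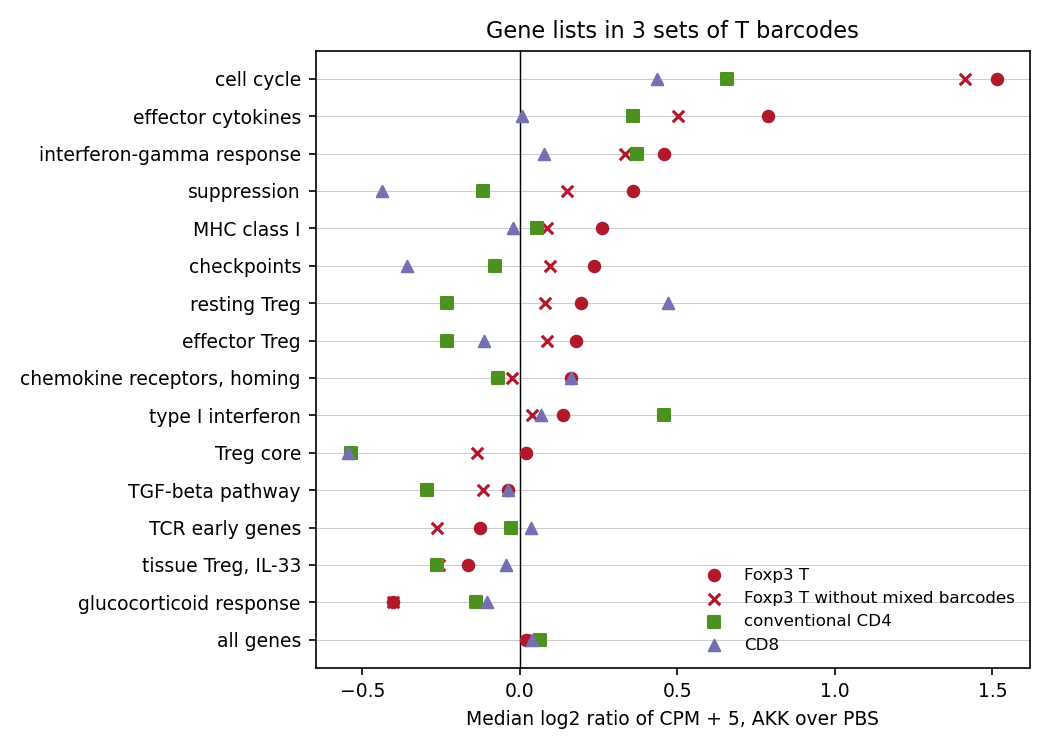
Median log2 AKK over PBS ratio (CPM + 5) of 15 gene lists and of all genes, in Foxp3 T barcodes, in those without mixed barcodes, and in conventional CD4 and CD8 barcodes. In Foxp3 T barcodes the cell cycle list lies at 1.52, the interferon gamma list at 0.46, the glucocorticoid list at -0.40 and all genes at 0.02.

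Transcription factors of T cell fate gave few large differences. The list had 11 of 21 measured members higher in AKK and 10 lower, with 2 past 1.5-fold each way and a median of 0.00. Rora, the ROR-alpha factor of tissue lymphocytes, was at 1646 CPM in AKK and 2762 CPM in PBS (0.596, 0.560 to 0.634), with a median of 12 and 28 UMIs per member, and its ratio in conventional CD4 barcodes was 0.632. Gata3, which tissue Treg cells need, was at 197 CPM in AKK and 272 CPM in PBS (0.725, 0.600 to 0.880), with 1.11 in conventional CD4 barcodes. Tbx21 (T-bet, the factor of type 1 responses) was at 80.5 CPM in AKK and 49.6 CPM in PBS (1.62, 1.09 to 2.49), with 0.939 in conventional CD4 barcodes. Maf, an inducer of Il10, was at 714 CPM in AKK and 595 CPM in PBS (1.20, 1.07 to 1.35). Id3, an inhibitor of E-protein factors, was at 37.4 CPM in AKK and 7.99 CPM in PBS (4.68, 1.90 to 14.9), from 15 and 3 members, or a ratio of 3.02 with barcodes weighted alike. In the IL-2 pathway Stat5b was at 308 CPM in AKK and 526 CPM in PBS (0.586, 0.508 to 0.676).

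The IL-33 and tissue Treg list had 6 of 17 measured members higher in AKK and 11 lower, 3 past 1.5-fold each way, with a median of -0.16. Its best-known members were near parity. Il1rl1 was at 169 CPM in AKK and 190 CPM in PBS (0.889, 0.714 to 1.11), Areg at 461 and 488 CPM (0.945, 0.826 to 1.08) and Klrg1 at 203 and 155 CPM (1.31, 1.04 to 1.66). For Areg 28.9% of the PBS UMIs were in 1 barcode. Tnfrsf9 of the TNF receptor list was at 871 CPM in AKK and 964 CPM in PBS (0.904, 0.821 to 0.996). In the TGF-beta list, Itgav, an integrin chain that helps to activate TGF-beta, was at 1416 CPM in AKK and 3119 CPM in PBS (0.454, 0.427 to 0.483), with 0.397 in conventional CD4 and 0.438 in CD8 barcodes. The Itgav difference was thus about as large in the other T cells.

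Glucocorticoid-response genes leaned lower in AKK. Of 13 measured members 12 were lower and 1 higher, with 5 past 1.5-fold lower and 1 higher (against 15.1% lower and 19.2% higher of all genes), and a median of -0.40, against -0.14 in conventional CD4 and -0.11 in CD8 barcodes. Without mixed barcodes 8 were lower and 5 higher at the same median of -0.40, and without cycling barcodes the median was -0.22. Fkbp5, a co-chaperone of the glucocorticoid receptor, was at 63.4 CPM in AKK and 134 CPM in PBS (0.472, 0.350 to 0.638), with 0.632 in conventional CD4 barcodes. Tsc22d3 (GILZ), a glucocorticoid-induced leucine zipper protein, was at 57.0 CPM in AKK and 134 CPM in PBS (0.425, 0.312 to 0.579), with 0.585 in conventional CD4 barcodes. Klf9, a hormone-induced factor, was at 35.5 CPM in AKK and 115 CPM in PBS (0.308, 0.213 to 0.443), with 36.1% of its PBS UMIs in 1 barcode and a conventional CD4 ratio of 1.04. The receptor gene Nr3c1 was at 651 CPM in AKK and 794 CPM in PBS (0.819, 0.735 to 0.914). After thinning, Fkbp5 was in 25% of AKK and 46.5% of PBS members, Tsc22d3 in 29.8% and 55.8%, and Klf9 in 14.4% and 37.2%.

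Effector cytokine genes, low in Treg cells as a rule, had 13 measured members of 25, with 10 higher in AKK and 3 lower, 7 past 1.5-fold higher and 2 lower (against 19.2% and 15.1% of all genes), and a median of 0.79. Without mixed barcodes 6 of 12 passed higher and 2 lower, with a median of 0.50. Ccl3 and Ccl4, chemokines of activated T cells, neutrophils and macrophages, are such members. Ccl4 was at 267 CPM in AKK and 97.5 CPM in PBS (2.74, 2.09 to 3.65), with 35.8% of the AKK UMIs in 1 barcode. Ifng was at 12.0 CPM in AKK and 1.60 CPM in PBS, a ratio of 7.53 (1.20 to 313) from 1 PBS UMI, in 13 and 1 members, and 1.83 with barcodes weighted alike. Marker sums of other cell types moved with these values: the neutrophil list was 0.245% of the UMIs of AKK members and 0.156% of those of PBS members, the NK and innate lymphoid list 0.049% and 0.023%, the CD8 list 0.071% and 0.036% and the plasma cell list 0.207% and 0.054%. Plasma cell genes were also higher in AKK in conventional CD4 barcodes (median 1.64) and CD8 barcodes (1.34), and the median Foxp3 T barcode held 0.204% in AKK and 0.041% in PBS. Of the 12 neutrophil genes, 10 were higher in AKK at a median of 0.94, which was -0.33 without mixed barcodes. The part of these sums in the ratios above was not tested beyond the values given without mixed barcodes.

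**Figure D5:**
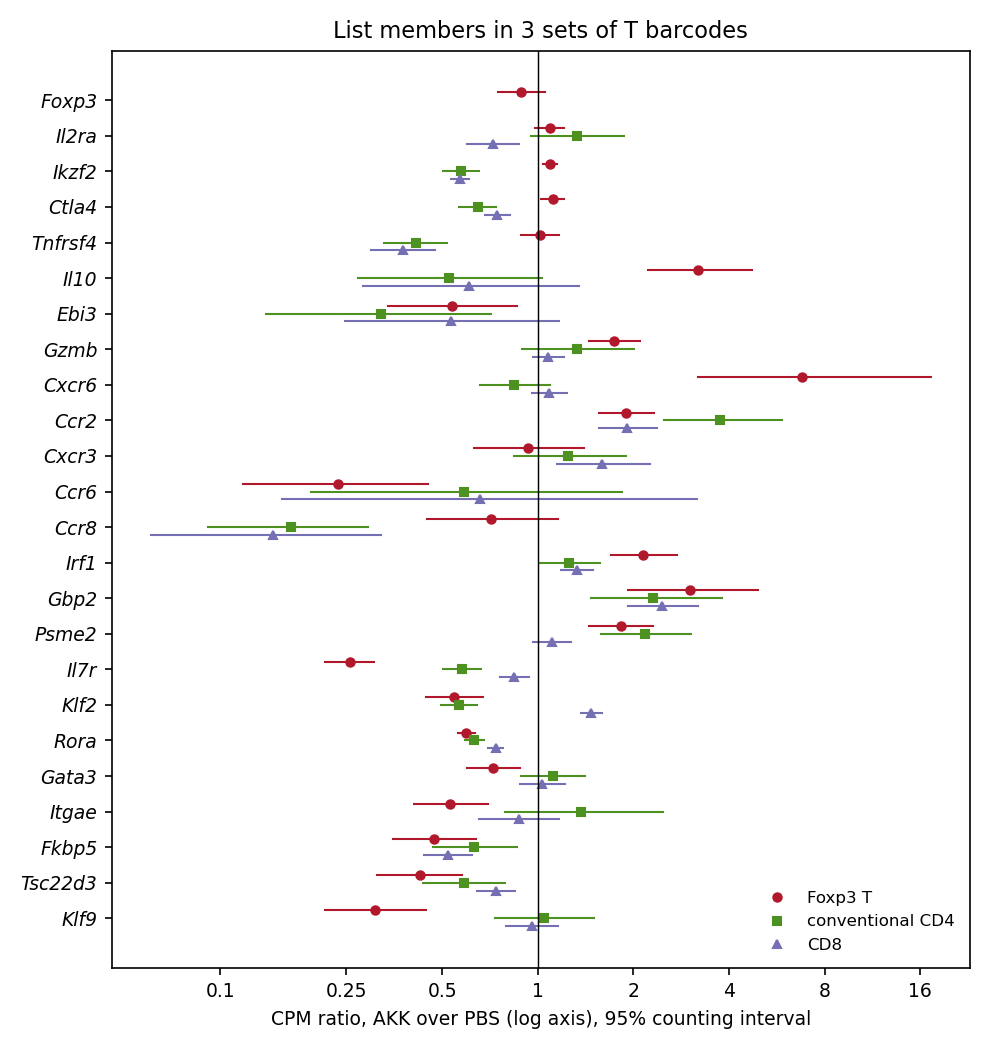
AKK over PBS ratio of CPM (log axis) for 24 genes with 95% counting intervals, in Foxp3 T, conventional CD4 and CD8 barcodes; the line marks a ratio of 1. Cxcr6 lies at 6.80 in Foxp3 T barcodes and 0.844 in conventional CD4 barcodes, Il10 at 3.20 and 0.527, and Il7r at 0.257 and 0.579.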

How the data were processed

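The deposited matrices hold raw UMI counts per gene and barcode, with no normalization by the authors. Cell Ranger 7.1.0 wrote them, per the file headers, while version 5.0.1 and build mm10 stand in the submitters' processing notes. Neither the intron setting nor the annotation release, which both affect the counts, was given in the sources used here. Libraries were made with 10x Genomics 3′ v3 chemistry from sorted live CD45+ cells, per the labels' protocols. Coordinates came from GENCODE M21 on GRCm38, which matched 32235 of 32285 gene identifiers (99.8%).

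Counts were summed over the barcodes of a set and divided by their total. Shares have exact Clopper-Pearson intervals, their differences Newcombe intervals, and ratios exact conditional binomial intervals, all at 95%. A ratio of ratios has a normal interval on the log scale. Genes needed 50 UMIs for counts of differences and 20 UMIs for gene lists, whose medians are of log2 ratios of CPM + 5. Genes were named as the 15 highest and 15 lowest by the interval end nearest to 1 (against conventional CD4 barcodes, the 15 highest and 10 lowest by the less extreme library), leaving out the genes of the rule and mitochondrial, ribosomal protein, immunoglobulin and T cell receptor segment genes. The given markers were added, and other genes stand as examples of their list. A few genes within the counts are not reported here by name. The members and lists were chosen with earlier results of these data known; the limits for mixed and cycling barcodes and the ranking without mixed barcodes were added after seeing the data. Doublets were kept. Removing the highest Scrublet scores, 0.8% per 1000 barcodes, took 340 AKK (5.22%) and 187 PBS (3.87%) barcodes, 8 and 1 of them Foxp3 T barcodes. The steps were tested on simulated data. Python 3.11.15, numpy 2.4.6, scipy 1.17.1, pandas 2.3.3, scanpy 1.11.5 and matplotlib 3.10.9 were used. Alternatives changed the rule's minimums, the barcode filters, doublets, barcode weights, scaling, UMI minimum, fold and pseudocount.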

Additional observations from a re-analysis of the deposited data

Results flagged for a closer look

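Among T barcodes with a Cd8a or Cd8b1 UMI, which the rule leaves out, 3.31% in AKK and 2.46% in PBS also held a Foxp3 UMI. These were 16 of 484 (1.90 to 5.31) and 5 of 203 (0.804 to 5.65) barcodes, at medians of 9336.5 and 10714 UMIs. The shares were 0.966% and 0.425% in shallower neutrophil barcodes (medians of 4454.5 and 5234 UMIs). They were 1.07% and 1.05% in macrophage barcodes (10276 and 13622.5 UMIs). In B barcodes (7933 and 8772 UMIs) they were 1.76% (0.808 to 3.32) and 1.28% (0.264 to 3.69), with intervals that overlapped those of the Cd8 barcodes. The Cd8 barcodes were looked at because they lie outside the described members.

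Another 5 named genes had AKK over PBS ratios in Foxp3 T barcodes that pointed the other way from those in both conventional CD4 and CD8 barcodes. None of these differences was tested. Gzmc, a granule protease, had an AKK over PBS ratio of 19.6 in Foxp3 T barcodes, with 90.9% of the AKK UMIs in 1 barcode. Its ratio was 0.065 (0.0014 to 0.506) in conventional CD4 barcodes, from 1 AKK and 7 PBS UMIs, and 0.223 in CD8 barcodes. Cldn18 had a ratio of 0.0179, Map1b of 0.0189 and Rbp4 of 0.0280, each with over 90% of the PBS UMIs in 1 barcode. Adam12 had a ratio of 0.193 from 8 AKK and 10 PBS barcodes. Its ratio was 9.40 (3.07 to 46.8) in conventional CD4 and 2.58 (1.21 to 6.32) in CD8 barcodes, from only 3 and 8 PBS UMIs.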

How the results depend on the processing

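With 1 library per group no library could be left out, and no value carries replicate error. No paired analysis was possible because each group has 1 library and no result comes from a test. The difference in the share of kept barcodes stayed between 0.375 and 0.788 points under every alternative run. That in the share of T barcodes turned to -1.56 points with at least 2 Cd3 UMIs, -0.789 with Cd4 required and -0.63 without mixed barcodes, within the counting interval. The share of cycling members differed by 10.3 points without mixed barcodes. Another scaling moved log2 ratios by 0.03.

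Counts of genes moved with the minimum and the fold. At 20 UMIs, 1679 genes were 1.5-fold higher and 1321 lower in AKK members; at 200 UMIs 238 and 138; with no minimum 5026 and 4024; with a fold of 2, 396 and 223. Against conventional CD4 barcodes the counts were 336 higher and 318 lower at 20 UMIs, 83 and 85 at 200 UMIs, and 772 and 881 with no minimum. The cause was not tested beyond the number of genes each minimum admits.

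Of 286 list medians under alternatives, 37 moved by more than the counting spread of the median. The core list was at 0.18 with at least 2 Cd3 UMIs and -0.14 without mixed barcodes. The glucocorticoid list was at -0.20 with at least 2 Cd3 UMIs, -0.24 with Cd4 required and -0.22 without cycling barcodes. The cell cycle list was at 0.78 with barcodes weighted alike, 1.79 with a pseudocount of 1 CPM and 0.23 without cycling barcodes.

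Of 693 values of named genes under alternatives, 33 changed direction (log2 ratios, AKK over PBS). A change was counted only for genes whose ratio by the rule as given was at least 1.5-fold either way. Genes nearer to parity that crossed it are not among the 33. Requiring 2 Foxp3 UMIs gave -0.28 for Mcpt2 and Ifi205, -1.28 for Mcpt4, -1.57 for Nrg1, 0.89 for Hmga2, 0.53 for Krt19 and Krt18, 1.72 for Tm4sf1, 1.15 for Krt8 and 0.043 for Sparc. Requiring 2 Cd3 UMIs gave -0.28 for Mcpt2, -2.11 for Mcpt4 and -0.87 for Nrg1. Requiring Cd4 gave -0.40 for Mcpt2, -1.14 for Mcpt4, -0.14 for Ifi205, -1.73 for Nrg1, 0.45 for Cldn18, 1.03 for Hmga2, 1.86 for Tm4sf1, 0.32 for Krt18 and 1.24 for Krt8. Leaving out mixed barcodes gave -0.11 for Mcpt2, -0.39 for Mcpt4, 1.07 for Hmga2 and Krt19, 1.61 for Tm4sf1, 0.61 for Krt18 and Ghr and 0.84 for Krt8. Leaving out cycling barcodes gave -0.49 for Mki67, -1.13 for Top2a and -1.45 for Hist1h2ap. These alternatives leave out single barcodes that held most UMIs of the gene for the mast cell and keratin genes. For Hmga2, Tm4sf1, Ghr, Cldn18 and Sparc over 90% of the PBS UMIs were also in 1 barcode. Cycling barcodes were chosen by UMIs of the cell cycle list. Beyond this the cause of the changes was not tested.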
